A study of Mus musculus with 6 samples.

Results

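The genes examined were 48 potassium channel and HCN channel genes of newborn mouse cortex, chosen by symbol from the 23016 rows of the deposited expression table. Each symbol matched 1 row, and all 48 passed the filter for testing, a normalised read count of at least 10 in at least 3 libraries. The table came from total RNA of cerebral cortex dissected at postnatal day 0, with 1 library from each of 3 wild type pups (Fezf2+/+) and 3 Fezf2 KO pups (Fezf2-/-). All pups came from crosses between Fezf2+/- mice. In each genotype replicates 1 and 2 belonged to litter m1 and replicate 3 to litter m2. The strain and the part of Fezf2 that the KO allele lacks are not given in the labels. The alleles were inherited, so the genotype is not limited to 1 cell type.

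Potassium channels let potassium leave the cell and so set the resting potential, end the action potential and limit repetitive firing of neurons. Voltage-gated Kv channels open on depolarisation, calcium- and sodium-activated channels open when those ions enter, inward rectifiers and K2P leak channels act near rest, and HCN channels carry a mixed cation current that is switched on by hyperpolarisation. Projection neurons of the deep cortical layers, whose specification depends on the transcription factor Fezf2, fire in the adult with properties that HCN and Kv channels help to set. The comparison asks which channel genes differ in transcript level between the cortex of Fezf2 KO and wild type pups at birth.

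Between 44978380 and 52872577 gene reads per library were recovered from the table. Normalised reads of Fezf2 itself were 5452 ± 452 in wild type (mean ± SD, n = 3 in each genotype here and throughout) and fell to 1633 ± 318 in the KO libraries (log2 -1.75, SE 0.129, limma adjusted p = 0.000832). Markers of cortical projection neurons were abundant in every library, with a sum over 8 genes, Fezf2 included, of 103800 to 108500 in wild type and 100600 to 109200 in Fezf2 KO. Another of the 8, Bcl11b, had 14713, 12618 and 11760 reads in wild type 1 to 3 and 5534, 9755 and 7116 in Fezf2 KO 1 to 3, with no overlap (log2 -0.84, SE 0.182, limma adjusted p = 0.114). Libraries stood apart in markers of neighbouring tissue. The sum over 6 choroid plexus markers was 9745 in Fezf2 KO 1 and 65.3 to 137 in the other libraries. The sum over 6 meningeal markers was 5312 in wild type 1 and 705 to 1164 elsewhere. The sum over 12 striatal neuron markers, none of which was at 0, was 17760, 15360 and 14220 in wild type 1 to 3, and 8948, 14930 and 10120 in Fezf2 KO 1 to 3. Of these 12 genes, 10 were lower at an unadjusted p under 0.05 and 0 passed the adjusted threshold. In this bulk tissue, fewer cells of a type and less RNA per cell cannot be told apart.

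Of the 48 channel genes, 1 rose and 0 fell in Fezf2 KO cortex by limma at a Benjamini-Hochberg adjusted p under 0.05. The gene that rose was Kcnh1, and the other 47 did not pass the test. Over all 17557 genes tested the same rule called 0.712% in either direction and 0.404% higher, against 2.08% of the members. With 1 gene called, that share says nothing particular about the members. With edgeR on the recovered reads, Kcnh1 was again the 1 member called and 0 were lower (0.689% of all genes were called). DESeq2, which called 2.3% of all genes, gave 4 higher members, Kcnh1, Kcnf1, Kcnn1 and Kcnj4, and 0 lower.

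An unadjusted p under 0.05 was found for 12 members, 8 higher and 4 lower in Fezf2 KO, which is 25% of them against 9.03% of all genes tested. The libraries of the 2 genotypes did not overlap in 15 members, 9 higher and 6 lower, which is 31.2% against 14.5% of all genes. Among the 11813 genes within the members' own range of mean level (74.8 to 4980 normalised reads), these shares were 8.97% and 14.3%. The members were chosen with earlier results of these data known, so their shares are no independent test of the list. The median log2 change of the members was 0.051, with 29 above and 19 below 0, against a median of 0.0025 over all genes. The median size of the change, without its sign, was 0.112 in the members and 0.0807 in all genes.

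For 40 members the 95% interval of the change lay within 1.5-fold in either direction, and for 20 of these within 1.25-fold. The 8 members whose interval reached past 1.5-fold were Kcnh1, Kcnn1, Kcna4, Kcnh5, Kcnv1, Kcnj4, Kcnj9 and Kcnt2. Kcnt2 was the member with the fewest reads, at 75.2 ± 25 in wild type and 74.5 ± 17.5 in Fezf2 KO.

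**Figure D1:**
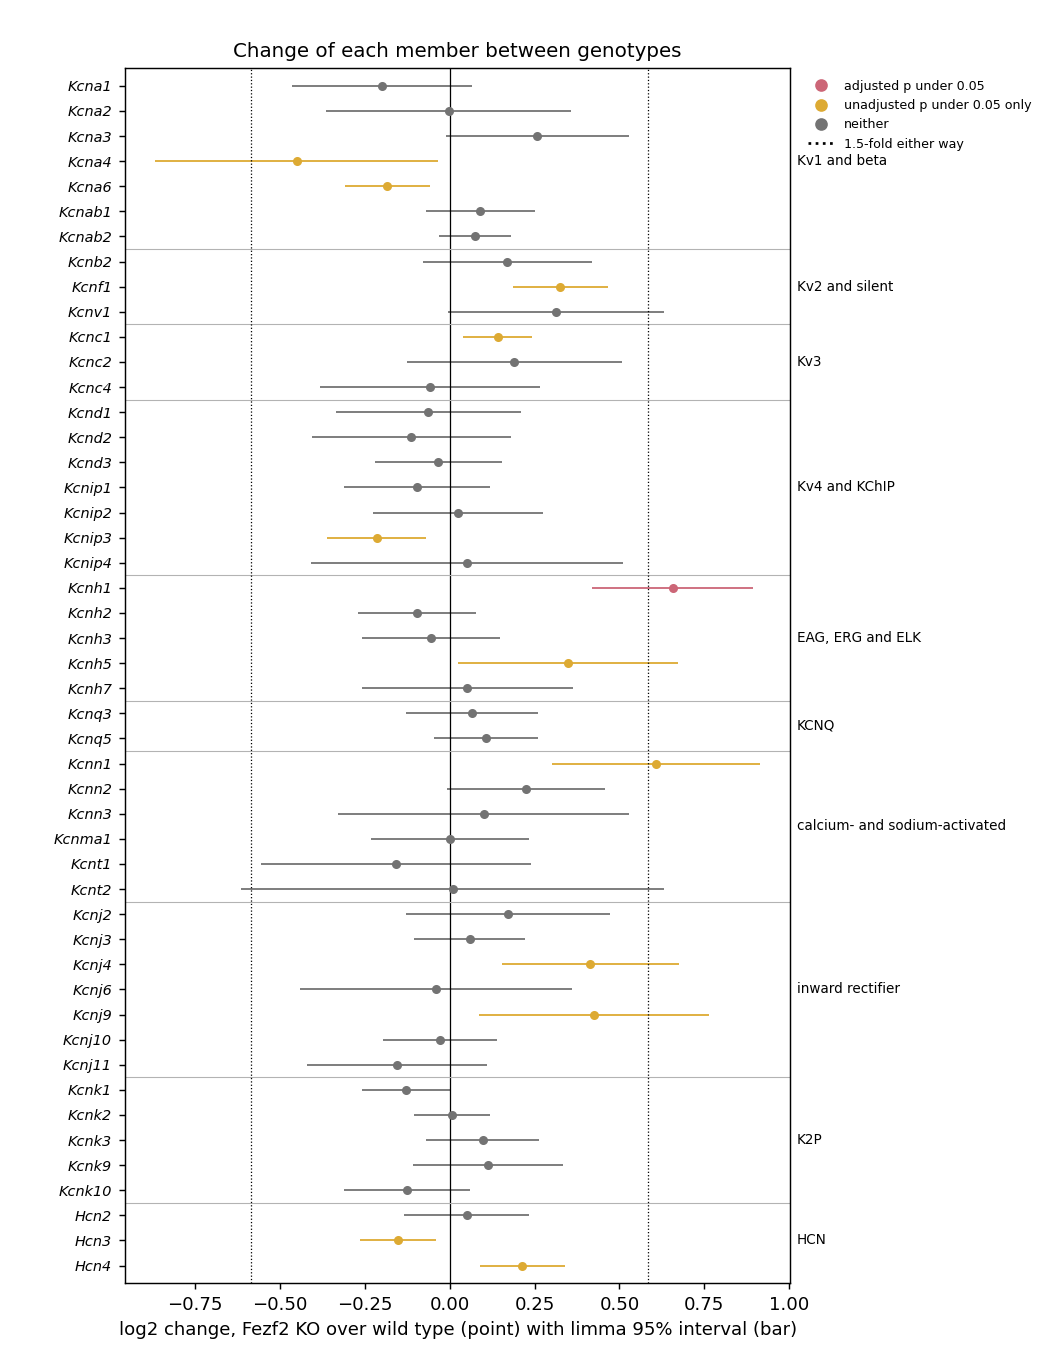
Change of each of the 48 members between genotypes, as log2 of Fezf2 KO over wild type on the normalised count plus 1 (horizontal axis; point, with the limma 95% interval as a bar; n = 3 per genotype), grouped by channel class from top to bottom. Kcnh1 is the 1 member past the adjusted threshold, and for 40 members the bar lies between the dotted lines at 1.5-fold.

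Kcnh1 encodes EAG1, a voltage-gated potassium channel of the ether-a-go-go family that is expressed mainly in brain. Its normalised counts were 1449, 1313 and 1738 in wild type 1 to 3, and 2515, 2282 and 2264 in Fezf2 KO 1 to 3. Every Fezf2 KO library lay above every wild type library, and wild type 3 was the highest of its genotype. The rise was 1.58-fold (95% interval 1.34 to 1.86; log2 0.66, SE 0.103, limma adjusted p = 0.0350). A fit that blocks on litter also called it (limma adjusted p = 0.0414, with 0.786% of all genes called). In litter m1 the log2 ratio of the means was 0.80 and in litter m2, with 1 library per genotype, it was 0.38. In litter m1 alone the limma adjusted p was 0.0629.

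The call of Kcnh1 did not survive the loss of most single libraries, although its direction did. Leaving out wild type 1 gave a limma adjusted p of 0.115, wild type 2 gave 0.0868 and wild type 3 gave 0.0147. Leaving out Fezf2 KO 1, 2 or 3 gave 0.0952, 0.0738 or 0.118. Over these 6 fits the log2 change lay between 0.57 and 0.77. Without both wild type 1 and Fezf2 KO 1, the libraries with the high meningeal and choroid plexus markers, it was 0.59 with a limma adjusted p of 0.227. Within Fezf2 KO the striatal marker sum was lowest in replicate 1, the library in which Kcnh1 was highest.

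As Kcnh1 was the member called, the 250 bases before its RefSeq start are shown, on build GRCm38.p6 at chr1:192190527-192190776, plus strand. The table was made on mm9, so these coordinates do not apply to it. Capitals mark CG dinucleotides.
Kcnh1 promoter: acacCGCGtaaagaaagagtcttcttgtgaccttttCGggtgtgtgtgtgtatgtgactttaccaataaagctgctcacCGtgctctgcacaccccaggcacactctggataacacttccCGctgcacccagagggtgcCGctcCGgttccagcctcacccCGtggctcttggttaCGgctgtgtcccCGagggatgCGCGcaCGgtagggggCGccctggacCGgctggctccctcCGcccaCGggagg
The window held 17 CG dinucleotides, against a median of 6 over 32851 RefSeq windows of this length. Of all these windows, 23.5% held at least 17. The median was 10 over the 55 windows of the 36 members that the promoter table lists. The E-box letters CANNTG, which are the same on both strands, did not occur in the Kcnh1 window. They occurred in 66.2% of all windows and in 61.8% of the 55 member windows. TATAAA was also not found on either strand, and 12.4% of all windows and 1.82% of the member windows hold it. These matches describe the letters of the window, and binding there was not measured.

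The other members of the EAG, ERG and ELK family did not pass. Kcnh5, which encodes EAG2, the closest relative of EAG1, had 146, 148 and 193 normalised reads in wild type 1 to 3 and 193, 218 and 206 in Fezf2 KO 1 to 3 (log2 0.35, SE 0.141, limma adjusted p = 0.496). Wild type 3 and Fezf2 KO 1 were nearly equal, and the other libraries were apart. The ERG channel genes Kcnh2 (2589 ± 84.3 in wild type and 2429 ± 231 in Fezf2 KO) and Kcnh7 (298 ± 41.2 and 308 ± 33.5) overlapped between genotypes. So did Kcnh3, the ELK2 gene of forebrain neurons, at 3706 ± 75.3 and 3587 ± 456.

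The Kv2 class held the member nearest to the threshold. Kcnf1 encodes a silent subunit, one that makes no channel alone and joins Kv2 subunits to change their gating. Its counts were 2589, 2592 and 2765 in wild type 1 to 3, and 3145, 3515 and 3305 in Fezf2 KO 1 to 3, with no overlap. The difference was 1.25-fold (95% interval 1.14 to 1.38; log2 0.33, SE 0.061, limma adjusted p = 0.0666). DESeq2 gave it an adjusted p of 0.000304. Centring each library on its median moved all log2 changes by 0.018 and brought the limma adjusted p of Kcnf1 to 0.0414, so that 2 members passed, with 0.889% of all genes called. Kcnv1, also a silent subunit, had 1111, 902 and 1229 reads in wild type and 1165, 1301 and 1559 in Fezf2 KO (log2 0.31, SE 0.138, limma adjusted p = 0.560), and wild type 3 lay above Fezf2 KO 1. Kcnb2, which encodes a pore-forming Kv2 subunit, had 293 ± 17.0 and 331 ± 34.1 (log2 0.17, SE 0.109, limma adjusted p = 0.750).

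Among the calcium- and sodium-activated channels, Kcnn1 had a difference almost as large as that of Kcnh1. Kcnn1 encodes SK1, a small-conductance calcium-activated channel of the afterhyperpolarisation. Its counts were 3051, 2489 and 3720 in wild type 1 to 3 and 4713, 4254 and 4989 in Fezf2 KO 1 to 3. The genotypes did not overlap, and the wild type libraries spread over a wider range than the Fezf2 KO ones. The log2 difference was 0.61 (1.52-fold, 95% interval 1.23 to 1.88; SE 0.134) with a limma adjusted p of 0.115. In both genotypes the litter m2 library was the highest, and blocking on litter gave a limma adjusted p of 0.0506. Without wild type 3 it was 0.0425, and without any 1 of the other 5 libraries 0.133 to 0.350. Litter m1 alone gave 0.173, leaving out both wild type 1 and Fezf2 KO 1 gave 0.418, and DESeq2 on all libraries gave 0.000647.

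The SK2 gene Kcnn2 had 1305, 1462 and 1500 reads in wild type and 1738, 1437 and 1833 in Fezf2 KO (log2 0.23, SE 0.102, limma adjusted p = 0.572). Fezf2 KO 2 lay within the wild type range. The SK3 gene Kcnn3 had 427 ± 32.6 and 468 ± 127, and its log2 ratio was 0.39 between the litter m1 means and -0.46 in litter m2. Kcnma1, which encodes the pore of the large-conductance BK channel, had nearly the same mean in both genotypes, 1272 ± 111 and 1275 ± 144, with a 95% interval of the log2 difference from -0.23 to 0.23. Kcnt1, the sodium-activated Slack channel gene, had 869 ± 43.0 in wild type, and 581, 998 and 811 in Fezf2 KO 1 to 3.

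**Figure D2:**
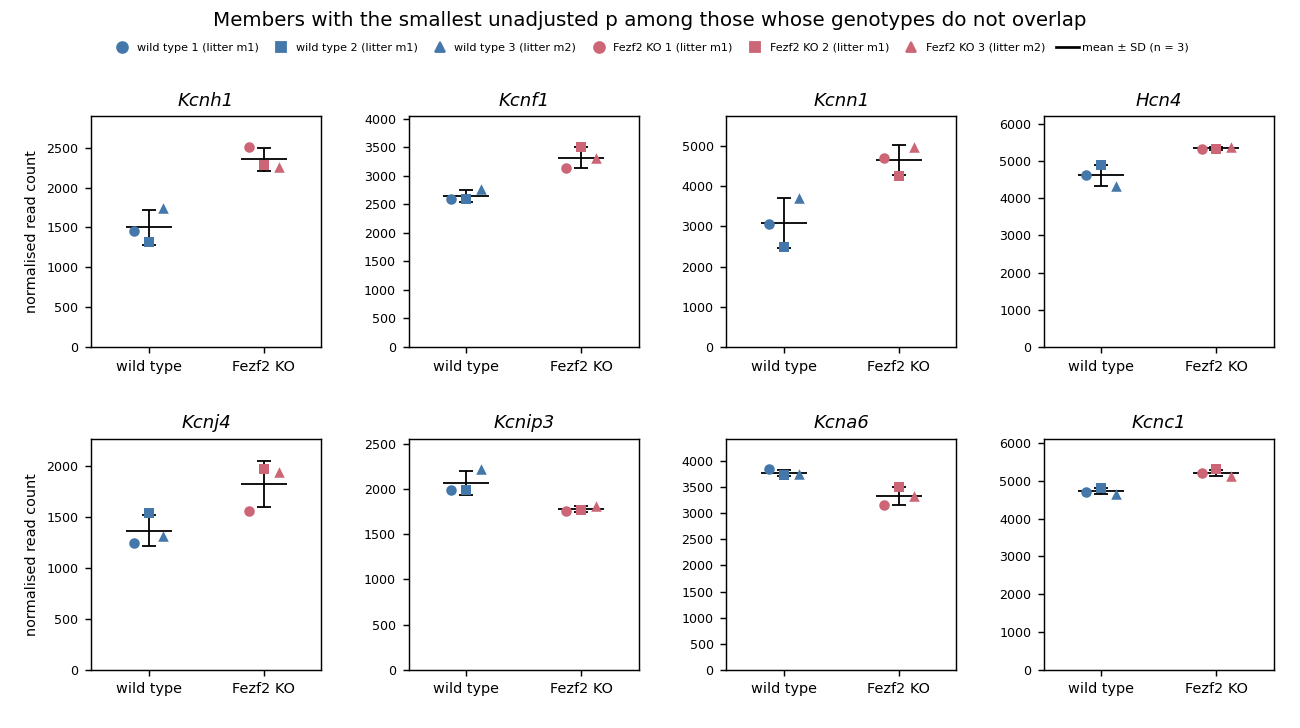
Normalised read counts per library (vertical axis from 0) of the 8 members with the smallest unadjusted p among those whose genotypes do not overlap, with wild type and Fezf2 KO side by side. Marker shapes give the replicate (triangles are litter m2) and black bars the mean ± SD of 3 libraries; the gap is widest in Kcnh1, at 1500 ± 217 against 2354 ± 140, and Kcnn1, at 3087 ± 616 against 4652 ± 371.

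Of the 7 inward rectifier genes, Kcnj4 and Kcnj9 had an unadjusted p under 0.05. Kcnj4 encodes Kir2.3, a strong inward rectifier of forebrain neurons. Its counts were 1250, 1543 and 1312 in wild type 1 to 3 and 1560, 1970 and 1947 in Fezf2 KO 1 to 3 (log2 0.41, SE 0.113, limma adjusted p = 0.229, DESeq2 adjusted p = 0.0334). The groups did not overlap, but Fezf2 KO 1 lay just above wild type 2. Kcnj9, which encodes the G protein-gated subunit GIRK3, had 896, 757 and 968 reads in wild type and 935, 1289 and 1322 in Fezf2 KO (log2 0.43, SE 0.147, limma adjusted p = 0.385), with Fezf2 KO 1 inside the wild type range. Its partner subunits GIRK1 and GIRK2 overlapped more fully, with Kcnj3 at 1011 ± 11 and 1055 ± 68.2 and Kcnj6 at 184 ± 13.7 and 182 ± 40.7.

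Kcnj2, the Kir2.1 gene, had 402 ± 41.3 in wild type and 455 ± 67.7 in Fezf2 KO (log2 0.17). Kcnj11, which encodes the pore of the ATP-sensitive channel, had 1315, 1416 and 1773 in wild type 1 to 3 and 1436, 1230 and 1354 in Fezf2 KO 1 to 3 (log2 -0.15, SE 0.115, limma adjusted p = 0.805). Kcnj10, the Kir4.1 gene of astrocytes and other glia, had 1264 ± 77.1 and 1239 ± 61.0. The sum over 6 astrocyte markers was 15330 to 15570 in wild type and 12350 to 14350 in Fezf2 KO, with none of the 6 called.

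The Kv1 class, whose channels open at low voltage and sit near the axon initial segment and nerve terminals, held values in both directions. Kcna6 had 3843, 3740 and 3753 reads in wild type 1 to 3 and 3158, 3504 and 3330 in Fezf2 KO 1 to 3 (log2 -0.18, SE 0.054, limma adjusted p = 0.283). All Fezf2 KO libraries lay below all wild type libraries, and the wild type libraries were close together. Kcna4, which encodes an inactivating A-type subunit, had 366, 332 and 308 in wild type and 181, 288 and 279 in Fezf2 KO (log2 -0.45, SE 0.181, limma adjusted p = 0.496). Fezf2 KO 1 was far below the other libraries, and without it the log2 difference was -0.24 (limma adjusted p = 0.676). This is also the library with the lowest sum of striatal markers, whose part in the value was not tested.

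Kcna3 had 867, 867 and 675 reads in wild type and 913, 1058 and 901 in Fezf2 KO (log2 0.26, SE 0.117, limma adjusted p = 0.574), with no overlap. Kcna1 had 277 ± 21.5 and 241 ± 22.4 (log2 -0.20), also with no overlap, and Kcna2 had 217 ± 12 and 220 ± 43.4. Of the beta subunits, which attach to the inner face of Kv1 channels, Kcnab2 had 3424 ± 46.4 and 3607 ± 48.3 (log2 0.075, no overlap) and Kcnab1 had 880 ± 42.9 and 937 ± 25.7.

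Kv3 channels support fast repetitive firing. Kcnc1 had 4711, 4822 and 4654 reads in wild type 1 to 3 and 5198, 5307 and 5139 in Fezf2 KO 1 to 3 (log2 0.14, SE 0.044, limma adjusted p = 0.312). The spread within each genotype was small, at an SD of 85.2 and 85.6, and the groups did not overlap. Kcnc2 had 343, 333 and 369 in wild type and 325, 466 and 415 in Fezf2 KO (log2 0.19, SE 0.138, limma adjusted p = 0.788). Kcnc4 had 1090 ± 81.9 and 1061 ± 216 (log2 -0.057, SE 0.141, limma adjusted p = 0.962). GABAergic interneurons, which use Kv3 channels when mature, had a marker sum over 11 rows of 45450 to 50450 in wild type and 52610 to 56670 in Fezf2 KO, with 1 of the 11 called (Npy, higher). The 11 rows are of 10 genes, since Dlx1 entered with 1 row at a wild type mean of 10200 and another at 8101. The part of this marker sum in the Kv3 values was not tested.

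Kv4 channels carry the A-type current of dendrites and work with the calcium-binding KChIP subunits. Kcnip3, which encodes KChIP3, also known as the transcriptional repressor DREAM, had 1992, 1991 and 2218 reads in wild type 1 to 3 and 1755, 1768 and 1815 in Fezf2 KO 1 to 3 (log2 -0.21, SE 0.063, limma adjusted p = 0.280). It was the 1 member of its class of 7 whose genotypes did not overlap, a share of 14.3%, against 14.5% of all genes tested. Kcnip1 had 1318 ± 70.7 and 1238 ± 138 (log2 -0.096), Kcnip2 had 810 ± 48.7 and 829 ± 114, and Kcnip4 had 151 ± 34.6 and 155 ± 25.5. The pore genes Kcnd1 (344 ± 15.0 and 331 ± 46.8), Kcnd2 (2020 ± 47.9 and 1893 ± 367) and Kcnd3 (2397 ± 108 and 2348 ± 245) overlapped between genotypes. For all 7 the 95% interval of the change lay within 1.5-fold.

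The KCNQ genes encode channels of the M-current, which dampens excitability and is closed by muscarinic receptors. Kcnq5 had 1888, 1963 and 2005 reads in wild type and 2012, 2273 and 2031 in Fezf2 KO (log2 0.11, SE 0.066, limma adjusted p = 0.739). Fezf2 KO 1 lay just above wild type 3, so the genotypes did not overlap. Kcnq3 had 954 ± 36.5 and 1002 ± 90.5 (log2 0.066). The interval of both lay within 1.25-fold.

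For all 5 genes of K2P channels, the leak channels of the resting potential, the 95% interval of the change lay within 1.5-fold, and for 4 within 1.25-fold. Kcnk2, the TREK1 gene, had 2903, 2834 and 2854 reads in wild type 1 to 3 and 2822, 2876 and 2936 in Fezf2 KO 1 to 3, with a 95% interval of the log2 difference from -0.10 to 0.12. Kcnk1, the TWIK1 gene, had 1550, 1594 and 1575 in wild type and 1457, 1400 and 1462 in Fezf2 KO (log2 -0.13, SE 0.057, limma adjusted p = 0.562), with no overlap. Kcnk10, the TREK2 gene, had 1159 ± 83.1 and 1062 ± 66.7 (log2 -0.13). The TASK genes Kcnk3 (1984 ± 147 and 2120 ± 102) and Kcnk9 (414 ± 37.6 and 447 ± 18.8) had log2 differences of 0.097 and 0.11.

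Among the HCN genes, Hcn4 and Hcn3 differed in opposite directions without passing the test. Hcn4 had 4626, 4886 and 4328 reads in wild type 1 to 3 and 5334, 5316 and 5389 in Fezf2 KO 1 to 3 (log2 0.21, SE 0.055, limma adjusted p = 0.189, DESeq2 adjusted p = 0.0577). The Fezf2 KO libraries were nearly equal, with an SD of 37.9, and lay above all wild type libraries. Hcn3 had 4321, 4305 and 4436 in wild type and 3950, 3774 and 4042 in Fezf2 KO (log2 -0.15, SE 0.049, limma adjusted p = 0.331), with the gap in the other direction. Hcn2 had 4538, 4578 and 3777 in wild type and 4280, 4643 and 4388 in Fezf2 KO, and overlapped (log2 0.051, SE 0.080, limma adjusted p = 0.932).

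Per length of transcript, HCN genes were among the most abundant of the members. In wild type cortex Hcn2 had 1345 normalised reads per kilobase of annotated exon, Hcn3 1048 and Hcn4 754, the 3 highest levels of the 48. Kcnk1 (704), Kcnn1 (673) and Kcnh3 (644) came next on that scale, and Kcnh1 had 205. The lowest levels per kilobase were those of Kcnt2 (10.9), Kcna2 (18.3) and Kcnb2 (19.3). The exon lengths are of the GENCODE M21 annotation rather than of the models the authors counted. With the longest transcript as the length Hcn2 and Hcn3 remained first and second, and Hcn4 was at rank 8.

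The 3 Fezf2 KO libraries differed from one another in these genes more than the wild type libraries did. The median coefficient of variation over the 48 members was 9.41% in Fezf2 KO and 6.21% in wild type, against 7.89% and 7.26% over all genes tested. Fezf2 KO 1 was the lowest of the 6 libraries in 19 members (39.6%, against 23.2% of all genes) and Fezf2 KO 2 the highest in 20 (41.7%, against 15.2%). Kcnd2 is an example, at 1513, 2244 and 1921 in Fezf2 KO 1 to 3 against 1991 to 2075 in wild type, and Kcnc4 another, at 848, 1279 and 1056 against 996 to 1142. Fezf2 KO 3 was the highest library in 14 members (29.2%, against 13.2% of all genes) and the lowest in 3 (6.25%, against 12.5%). The striatal marker sum was also lowest in Fezf2 KO 1 and highest of its genotype in Fezf2 KO 2. In Fezf2 KO 3 that sum was 10120, below every wild type library. The part of the striatal marker sum in these values was not tested. Without Fezf2 KO 1 the log2 difference went from -0.11 to 0.040 for Kcnd2, from -0.16 to 0.052 for Kcnt1 and from -0.040 to 0.15 for Kcnj6.

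**Figure D3:**
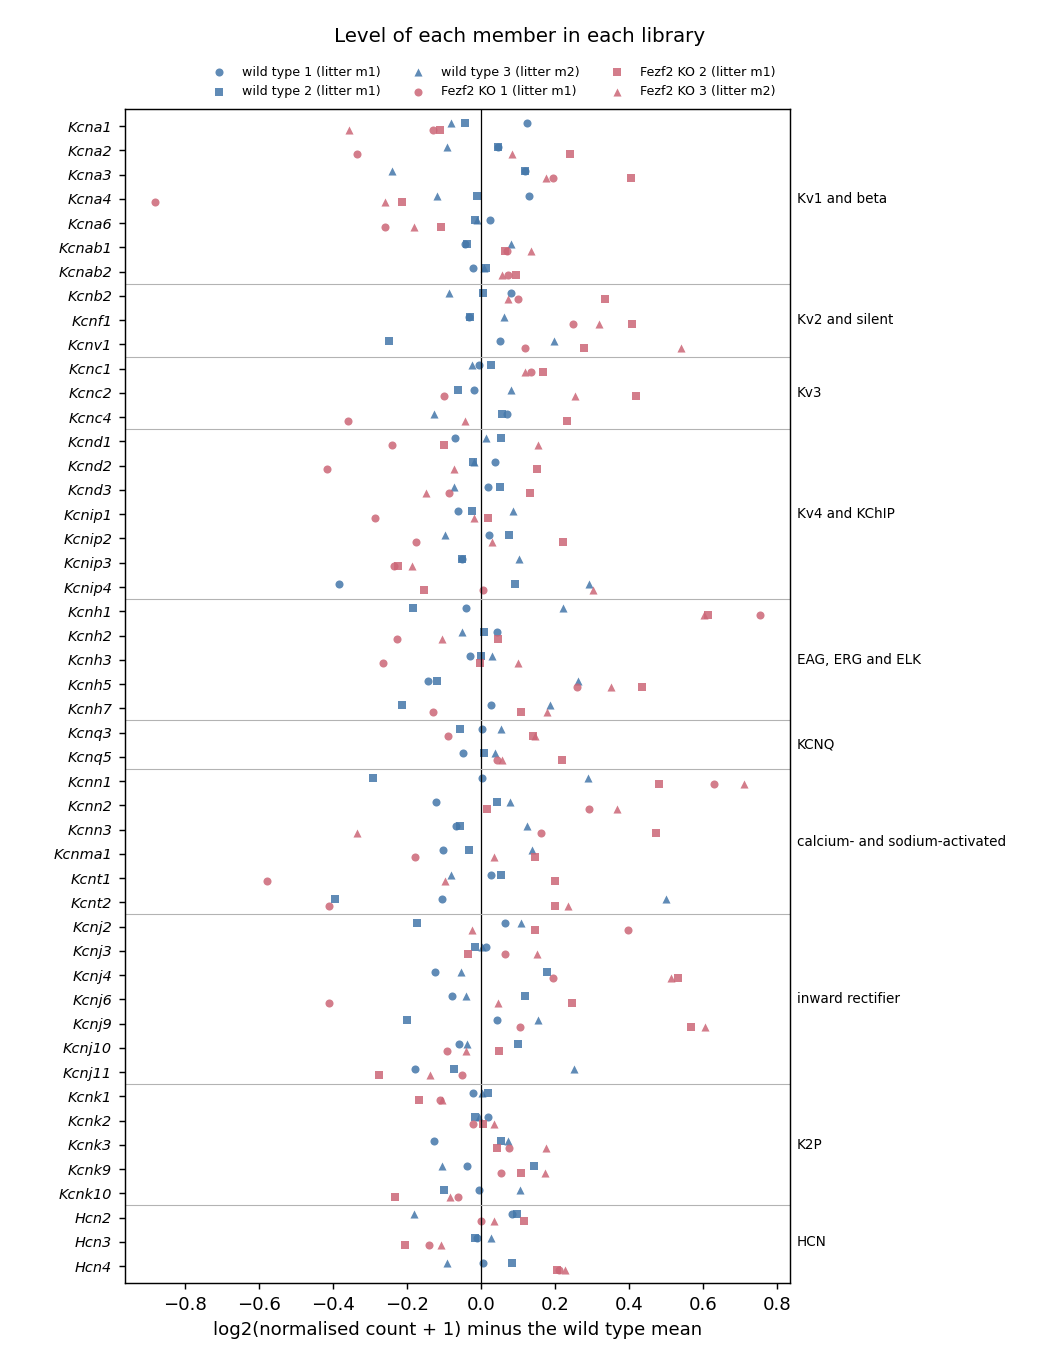
Level of each of the 48 members in each of the 6 libraries, as log2(normalised count + 1) minus the wild type mean of that gene (horizontal axis), grouped by channel class. Blue is wild type and red Fezf2 KO; circles and squares are litter m1 and triangles litter m2. The red circle (Fezf2 KO 1) is the lowest point in 19 members and the red square (Fezf2 KO 2) the highest in 20.

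The rest of the potassium channel family, with auxiliary and anchoring proteins, was listed as 72 symbols. Of these 69 matched 70 rows of the table, of which 56 were tested and 14 were under the filter. By limma and by edgeR 0 changed, and by DESeq2 5 of the 56 did (1 higher and 4 lower), where DESeq2 called 2.3% of all genes. An unadjusted limma p under 0.05 was found for 10 (5 higher and 5 lower), which is 17.9% against 9.03% of all genes. This list too was chosen with earlier results of these data known. The median log2 change of the 56 was -0.018. The smallest p was that of Pex5l, which encodes TRIP8b, the auxiliary subunit that controls HCN channel traffic in dendrites. It had 925, 962 and 1026 reads in wild type 1 to 3 and 359, 625 and 537 in Fezf2 KO 1 to 3 (log2 -0.97, SE 0.182, limma adjusted p = 0.0673, DESeq2 adjusted p = 2.67e-05). Each Fezf2 KO library was far below the wild type range. Leaving out Fezf2 KO 1 gave a log2 difference of -0.74 (limma adjusted p = 0.0238) and leaving out Fezf2 KO 2 gave -1.14 (limma adjusted p = 0.0325). Without any 1 of the other 4 libraries the limma adjusted p was 0.164 to 0.231, blocking on litter gave 0.0938, and litter m1 alone gave 0.462. Within Fezf2 KO the order of Pex5l levels was that of the striatal marker sum. Within wild type the order was the reverse, with that sum at 17760, 15360 and 14220 in wild type 1 to 3. The part of the striatal marker sum in the Pex5l values was not tested. The log2 differences of Hcn2, Hcn3 and Hcn4 lay between -0.15 and 0.21.

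Lrrc55, a gamma subunit of BK channels, had 958 ± 61.0 and 736 ± 76.3 (log2 -0.38, SE 0.094, limma adjusted p = 0.167). Dpp10, an auxiliary subunit of Kv4 channels, had 973 ± 41.1 and 769 ± 69.4 (log2 -0.34, SE 0.086, limma adjusted p = 0.182). Neither overlapped between genotypes, and DESeq2 called both lower, with adjusted p of 0.0246 and 0.0315. Kcnmb4, the neuronal beta subunit of BK, had 4602 ± 327 and 5247 ± 305 (log2 0.19, limma adjusted p = 0.411).

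Among the other pore genes, Kcng1, a silent subunit like Kcnf1, had 1836, 1915 and 2026 reads in wild type and 2209, 2283 and 2340 in Fezf2 KO (log2 0.24, SE 0.060, limma adjusted p = 0.172, DESeq2 adjusted p = 0.0208). Kcns1, which encodes a silent subunit of another family, had 416, 694 and 365 in wild type and 680, 897 and 809 in Fezf2 KO (log2 0.74, SE 0.224, limma adjusted p = 0.294), and its limma adjusted p was 0.0322 without wild type 2 and 0.316 to 0.609 without any 1 of the other 5 libraries. Kcnj12, a Kir2 gene, had 399, 352 and 284 in wild type and 158, 254 and 220 in Fezf2 KO (log2 -0.72, SE 0.196, limma adjusted p = 0.222, DESeq2 adjusted p = 0.0381). Kcnh4, an ELK gene, had 812, 642 and 799 against 395, 632 and 527 (log2 -0.55, SE 0.172, limma adjusted p = 0.311). In Kcnj12 and Kcnh4, and in Dpp10, Fezf2 KO 1 was the lowest library and Fezf2 KO 2 the highest of its genotype. The striatal marker sum had the same order within Fezf2 KO, and its part was not tested. From wild type 1 to 3 that sum fell at each step, as did Kcnj12. Kcnh4 and Dpp10 (982, 928 and 1008 in wild type 1 to 3) did not. Lrrc55 had another order within Fezf2 KO, with 674, 713 and 821 reads in Fezf2 KO 1 to 3. Kcne2, named after its values were seen, had 75.5 reads in Fezf2 KO 1, the library with the high choroid plexus markers, and 4.68 to 14.1 in the others.

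**Figure D4:**
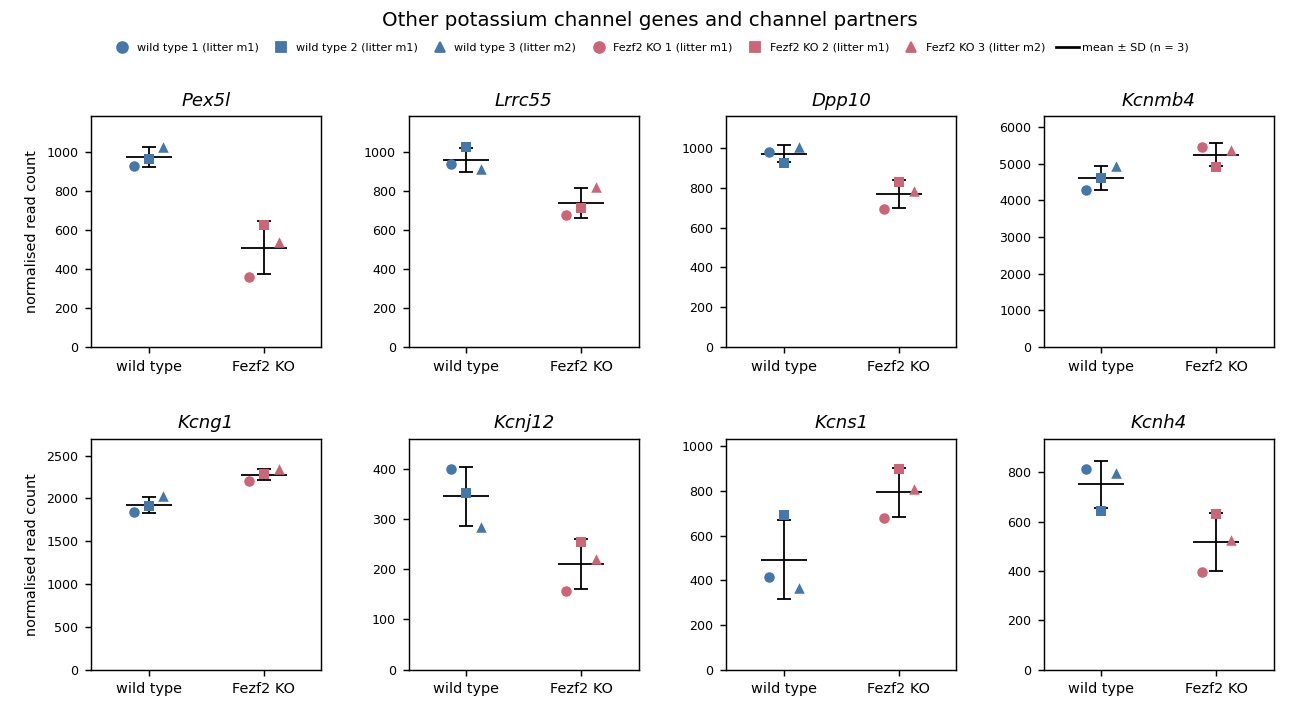
Normalised read counts per library (vertical axis from 0) of 4 channel partner genes (top) and 4 other potassium channel genes (bottom), with black bars for the mean ± SD of 3 libraries per genotype. Pex5l had a mean of 971 ± 50.9 in wild type and 507 ± 136 in Fezf2 KO, and in Kcns1 and Kcnmb4 the genotypes overlap.

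Overlap with other genes adds uncertainty to some members, since no source used here states whether strand was counted. In the GENCODE M21 annotation 19 of the 48 members share exon bases with another gene, and Kcnh1 and Kcnf1 are not among them. For 3 of the 19 the other gene is in the table, namely Pklr with Hcn3, Gca with Kcnh7 and Mcrs1 with Kcnh3. The shared exon bases number 711 for Hcn3, 696 for Kcnh7 and 1 for Kcnh3. Pklr had 28.4 to 48.7 reads, few beside those of Hcn3. Gca had 88.5 to 130 reads, beside 255 to 337 for Kcnh7, so the Kcnh7 values are uncertain. For the rest of the 19 no gene of the other's name is in the table, so its reads could not be gauged. The most shared bases among these were 2355 for Kcna6, 1621 for Kcnj3 and 1016 for Kcnma1. Kcnn1 and Kcnj9 are also among them, with 132 and 172 shared bases. The values of these members are uncertain to an unknown degree.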

How the data were processed

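Cortical RNA of 6 newborn mice, 3 per genotype, was sequenced on an Illumina Genome Analyzer II after TruSeq preparation, per the labels. Bowtie, STAR and DESeq and the build mm9 are listed, without versions or roles, per the submitters' processing notes. The deposited signal values behave as gene reads scaled by a size factor for each library. Dividing by the smallest step (0.812 to 0.936) gave whole reads for 100% of the values of each library, within 0.006.

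Genes at 10 or more in at least 3 libraries were fitted with limma 3.58.1 (R 4.3.3) on log2(value + 1) with genotype as the term and a variance trend, and p-values were Benjamini-Hochberg adjusted over 17557 genes. Fold changes of low genes are understated by the added 1. edgeR 4.0.16 and DESeq2 1.42.0 on the recovered reads were alternatives, and on the reads edgeR called 121 genes. The steps were tested on simulated data.

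The members, lists and alternatives were chosen with earlier results of these data known. All members may be named. Full statistics go to members that passed and up to 3 per class with the smallest p, and of the other family genes to up to 4 per class. Marker lists also covered thalamic, hippocampal, oligodendrocyte, microglial, endothelial and mural, and erythroid genes, in which 0 were called by limma (Prox1, in the thalamic and hippocampal lists, Fibcd1, Pdgfra and Tek had an unadjusted p under 0.05).

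The labels give the litter. Deviations from the genotype mean correlated (Pearson's r over genes, which are not independent) between -0.137 and 0.223 in 5 same-litter pairs and between -0.162 and -0.038 in 4 others. No library copied another of its genotype (chi-square of their reads over degrees of freedom, 8.39 to 19.2). Counting error alone lets a gene with no read have up to 3, or 2.44 to 2.81 in deposited units. p-values measure the spread between these pups.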

Additional observations from a re-analysis of the deposited data

How the results depend on the processing

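Of 768 values of the members' log2 changes over 16 alternatives, 718 kept their direction, and 30 of the 48 members kept it throughout. The number of members changed was 4 by DESeq2, 2 with median centring (Kcnf1 and Kcnh1), 2 at an adjusted p under 0.1 (Kcnf1 and Kcnh1), and 0 in litter m1 alone. It was also 0 without the pair wild type 1 and Fezf2 KO 1, a setting that was chosen after seeing the data. It ranged from 0 to 2 when 1 library was left out. It was 1 with the other pseudocount, filters and edgeR scalings and with litter as a replicate block, which changed no other call among the members. Other family genes changed numbered 5 by DESeq2 and 1 at an adjusted p under 0.1 (Pex5l), and 0 to 1 with 1 library left out. Over all genes the counts were 403 by DESeq2, 29 in litter m1 alone, 57 without both libraries, 222 at an adjusted p under 0.1, and 61 to 119 with 1 library left out, with 61 without Fezf2 KO 3, 74 without wild type 3 and 77 without wild type 2. Fewer libraries alone can lower such counts. Directions turned for members with small differences, and the cause was not tested. With 1 library left out the log2 change ranged from -0.12 to 0.16 for Kcna2, from -0.20 to 0.095 for Kcnc4, from -0.17 to 0.027 for Kcnd1, from -0.24 to 0.040 for Kcnd2, from -0.12 to 0.023 for Kcnd3, from -0.15 to 0.00021 for Kcnip1, from -0.073 to 0.13 for Kcnip2, from -0.14 to 0.20 for Kcnip4, from -0.13 to 0.050 for Kcnh3. It also ranged from -0.055 to 0.15 for Kcnh7, from -0.086 to 0.32 for Kcnn3, from -0.072 to 0.091 for Kcnma1, from -0.34 to 0.052 for Kcnt1, from -0.19 to 0.26 for Kcnt2, from -0.18 to 0.15 for Kcnj6, from -0.067 to 0.021 for Kcnj10, from -0.0071 to 0.021 for Kcnk2, from -0.040 to 0.099 for Hcn2. Without both wild type 1 and Fezf2 KO 1 it was 0.19 for Kcna2, 0.13 for Kcnc4, 0.059 for Kcnd2, 0.0030 for Kcnd3, -0.12 for Kcnip4, 0.035 for Kcnh3, 0.065 for Kcnt1, 0.11 for Kcnj6. In litter m1 alone it was -0.025 for Kcnip2, -0.0095 for Kcnk2, -0.032 for Hcn2. By edgeR with TMM it was 0.012 for Kcna2, -0.017 for Kcnt2, by edgeR with RLE 0.013 for Kcna2, -0.016 for Kcnt2, by DESeq2 0.012 for Kcna2, -0.014 for Kcnt2, and with median centring 0.015 for Kcna2. With 3 pups per genotype, members with fewer reads, such as Kcnt2, had wider intervals. Within litter m2 no fit was possible with 1 library per genotype.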
